A study of Mus musculus with 4 samples.

Results

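Antioxidant and glutathione genes were taken from the deposited table of 23996 genes by symbol: glutathione S-transferases (Gst), peroxiredoxins (Prdx), glutathione peroxidases (Gpx), thioredoxins and thioredoxin-like genes (Txn), superoxide dismutases (Sod), haem oxygenases (Hmox), and the single genes Cat, Gclc, Gclm, Gss and Gsr. The rule found 66 genes. It is a rule on names, so it also took genes that are not antioxidant enzymes. Gpx2-ps1 is a pseudogene, Txnl4a encodes a spliceosome protein, and Txnip encodes a protein that binds and inhibits thioredoxin.

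Hair cells sorted from the mouse cochlear epithelium at postnatal day 7 were compared in 2 groups of 2 libraries each. All mice carried Sox2-CreER+, Atoh1-HA+, Atoh1-eGFP+ and tdTomato+ on the C57BL/6 strain, animals of both sexes were used, and Cre, driven by Sox2, switches on both Atoh1-HA and tdTomato after tamoxifen. New hair cells were eGFP+/tdTomato+ cells, induced by Atoh1 overexpression from Sox2-expressing supporting cells. They require tamoxifen, which was given at postnatal day 3 at 0.20 mg per g body weight. Original hair cells were sorted as eGFP+ cells. Control mice received corn oil alone, and the labels do not say which mice gave the original hair cells, nor whether the libraries of a group came from separate animals or pools. Supporting cells with tdTomato alone were not analysed here. The comparison describes how the transcriptome of Atoh1-induced hair cells differs from that of their native counterparts.

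Hair cells depend on mitochondria to power transduction and are sensitive to oxidants, which noise, aminoglycosides and cisplatin raise. Superoxide dismutases turn superoxide into hydrogen peroxide, which catalase, peroxiredoxins and glutathione peroxidases break down. Peroxiredoxins are recharged by thioredoxin and thioredoxin reductase, and glutathione peroxidases by glutathione, a tripeptide made by Gclc with Gclm and then Gss, and recycled by Gsr. Glutathione S-transferases join glutathione to reactive compounds, and many genes of these classes carry the antioxidant response element bound by the transcription factor NRF2.

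The antioxidant response element has the core TGACNNNGC. The 250 bases before a RefSeq start are shown for 6 of the 10 genes whose windows hold it. These 6 were picked with their values known, so their directions do not describe genes with the core. As deposited, 5 of them were lower in new hair cells and 1, Gclm, was higher. Gclm lay within 2-fold on the log2(FPKM + 1) scale used below, with a plain FPKM ratio of 2.17. Of the 5, Sod1, Prdx1 and Gstm5 turned higher in 3 settings. Txndc5, which holds the core and was higher by 2-fold or more, is not shown. Capitals mark the core, read on either strand. The sequences are RefSeq promoter windows of build GRCm38.p6 (mm10), written 5′ to 3′ on the strand of the gene. The windows are chr10:82858956-82859205 (+) for Txnrd1, chr4:116685349-116685598 (+) for Prdx1, chr3:122245307-122245556 (+) for Gclm, chr16:90220512-90220761 (+) for Sod1, chr3:107895604-107895853 (+) for Gstm5 and chr3:107931615-107931864 (-) for Gstm7.
Txnrd1: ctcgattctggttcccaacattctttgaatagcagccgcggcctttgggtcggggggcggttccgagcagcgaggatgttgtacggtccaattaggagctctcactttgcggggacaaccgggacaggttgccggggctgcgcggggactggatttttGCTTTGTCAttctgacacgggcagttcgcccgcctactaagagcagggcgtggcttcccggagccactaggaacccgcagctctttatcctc
Prdx1: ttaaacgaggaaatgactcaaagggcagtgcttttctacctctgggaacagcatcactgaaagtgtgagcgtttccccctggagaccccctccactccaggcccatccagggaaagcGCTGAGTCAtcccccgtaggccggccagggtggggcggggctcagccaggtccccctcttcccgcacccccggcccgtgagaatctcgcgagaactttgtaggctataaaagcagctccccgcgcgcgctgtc
Gclm: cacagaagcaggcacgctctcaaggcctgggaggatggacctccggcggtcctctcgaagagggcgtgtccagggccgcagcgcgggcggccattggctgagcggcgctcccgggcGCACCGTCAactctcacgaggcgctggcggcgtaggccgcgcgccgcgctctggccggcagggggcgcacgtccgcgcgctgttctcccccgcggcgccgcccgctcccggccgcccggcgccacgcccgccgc
Sod1: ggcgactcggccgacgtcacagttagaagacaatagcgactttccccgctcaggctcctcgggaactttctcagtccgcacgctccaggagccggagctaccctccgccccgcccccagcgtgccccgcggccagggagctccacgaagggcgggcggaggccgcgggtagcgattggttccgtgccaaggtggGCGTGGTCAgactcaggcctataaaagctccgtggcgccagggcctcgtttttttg
Gstm5: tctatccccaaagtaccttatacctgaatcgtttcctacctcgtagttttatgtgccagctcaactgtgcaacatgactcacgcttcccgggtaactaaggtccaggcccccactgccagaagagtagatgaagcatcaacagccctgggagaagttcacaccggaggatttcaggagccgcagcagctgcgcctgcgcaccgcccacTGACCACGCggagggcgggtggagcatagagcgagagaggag
Gstm7: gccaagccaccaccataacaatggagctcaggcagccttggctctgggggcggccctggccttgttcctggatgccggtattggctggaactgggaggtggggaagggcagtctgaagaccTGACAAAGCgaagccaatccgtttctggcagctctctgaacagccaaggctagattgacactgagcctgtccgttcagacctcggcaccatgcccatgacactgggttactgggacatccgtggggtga

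The core began 92 bases before the start in Txnrd1, 133 in Prdx1, 134 in Gclm, 56 in Sod1, 42 in Gstm5 and 129 in Gstm7. It stands on the gene's own strand in Gstm5 and Gstm7 and on the opposite strand in the other 4. Txnrd1 has 3 such windows and Gstm7 has 2, of which 1 each holds the core. In both genes that window belongs to a start inside the gene, and the core lies within the annotated gene. The Gstm7 window at the first annotated start of the gene (chr3:107931768-107932067) lacks the core. RefSeq windows of 300 bases (250 before and 50 from the start) were matched for 55 of the 66 genes, 75 windows in all, and 10 of these windows held the core (13.3%), against 12.4% of all 32851 windows. The other 4 genes with the core were Gsta3, Txndc11, Txndc2 and Txndc5. The letters CAGCTG, a form of the E-box bound by many basic helix-loop-helix factors, were in 7 member windows (9.33%) and in 16.3% of all windows. A match of letters is a description and not a binding site.

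Each gene had 1 FPKM value per group (fragments per kilobase of transcript, scaled to the size of the library, pooled or averaged by the authors). The values below therefore carry no replicate error, whether a difference exceeds the spread between replicate libraries could not be tested, and the depth is unknown. FPKM summed to 244225 in new hair cells and 2165833 in original hair cells, an 8.87-fold lower sum in new hair cells. Among the 9026 genes with at least 1 FPKM in a group and a value above 0 in both (tested genes), the median log2(FPKM + 1) difference of new minus original was -0.21. The gap grew with level, to a median of -3.40 in the highest of 10 equal groups of genes by mean level (level groups). Atoh1 itself stood at 83.4 FPKM in new hair cells and 791 FPKM in original hair cells, and transgene and endogenous transcripts are not separated in the table. Of 16 hair cell markers, 13 were lower by 2-fold or more in new hair cells (81.2%, against 34.9% of all tested genes) and 1 higher (6.25%, against 19.9%). These shares were not matched for level, and in the highest level group 81.9% of all genes were lower by 2-fold or more. The summed level of the 16 was 1240 FPKM in new and 44798 FPKM in original hair cells. For 15 supporting cell markers the sums were 4538 FPKM in new and 15428 FPKM in original hair cells. The order of these sums rests on S100a1 (3617 FPKM in new and 15179 FPKM in original hair cells), without which they were 922 FPKM in new and 249.4 FPKM in original hair cells. Of the 14 supporting cell markers tested, 7 were higher by 2-fold or more in new hair cells (50%, against 19.9% of all tested genes) and 4 lower (28.6%, against 34.9%). In such bulk samples fewer cells of a type and less RNA per cell cannot be told apart.

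Of the 66 genes, 51 were tested, 7 were listed at 0 in both groups, 5 at 0 in 1 group and 3 were under 1 FPKM in both. On the log2(FPKM + 1) scale 7 of the 51 were higher by 2-fold or more in new hair cells (13.7%, against 19.9% of all tested genes) and 16 lower by 2-fold or more (31.4%, against 34.9%). The remaining 28 lay within 2-fold. Calls of 2-fold or within 2-fold are on this scale throughout, while folds of single genes are plain FPKM ratios. Their median difference was -0.29, close to that of all tested genes, so as a set these genes were near the background in both directions. Before adjustment, p in the authors' deposited table was under 0.05 for 3 of the 51, each of them lower in new hair cells (5.88%, against 8.83% of all tested genes), and none that was higher did (against 0.554% of all tested genes). No gene of the 9026 passed once p from the authors' deposited table was adjusted by Benjamini and Hochberg's method (0% called), where 847 were under 0.05 unadjusted and the smallest adjusted p was 0.526. The values that follow describe which members were high in which group. Among members lower in new hair cells by 2-fold or more, Sod1, Prdx1, Gpx4, Gsr, Gstm5 and Txndc15 turned higher after quantile normalization, with equal FPKM sums and relative to genes of the same level.

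**Figure D1:**
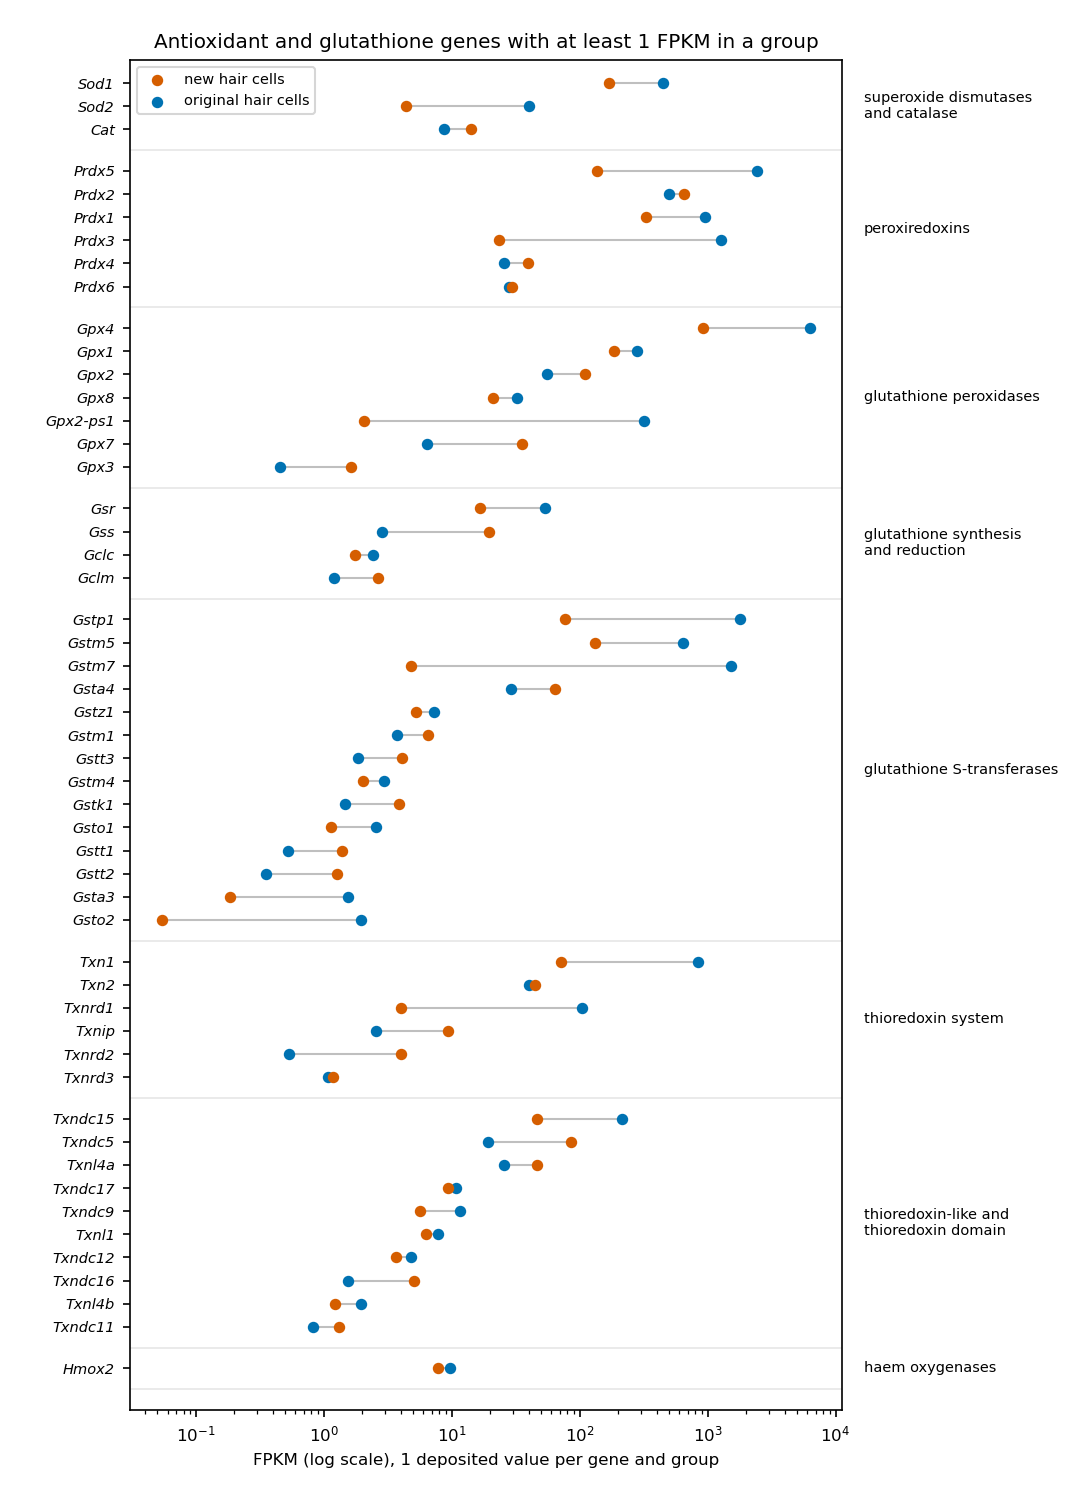
FPKM of the 51 tested genes in new hair cells (orange) and original hair cells (blue), 1 deposited value per gene and group, on a log axis and grouped by enzyme class. Lines join both values of a gene: Gstm7, Prdx3, Txnrd1, Gstp1 and Prdx5 lie far to the left in new hair cells, while Gss, Gpx7, Txndc5 and Txnrd2 lie to the right.

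Levels were compared with those of other genes at the same level, since abundant genes were lower in new hair cells across the transcriptome. In the highest 3 level groups, 14 of 25 members were lower by 2-fold or more in new hair cells (56%, against 65.1% of all 2708 genes there) and 3 higher by 2-fold or more (12%, against 13.5%). Their median difference was -1.53, against -2.66 for all genes of that level. In the lowest 7 level groups, 2 of 26 members were lower by 2-fold or more (7.69%, against 21.95% of 6318 genes) and 4 higher by 2-fold or more (15.4%, against 22.6%), with medians of 0.21 and 0.16 on the log2(FPKM + 1) scale for members and all genes of that level. In all, 32 of the 51 members lay above the median difference of their own level group and 19 below it.

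**Figure D2:**
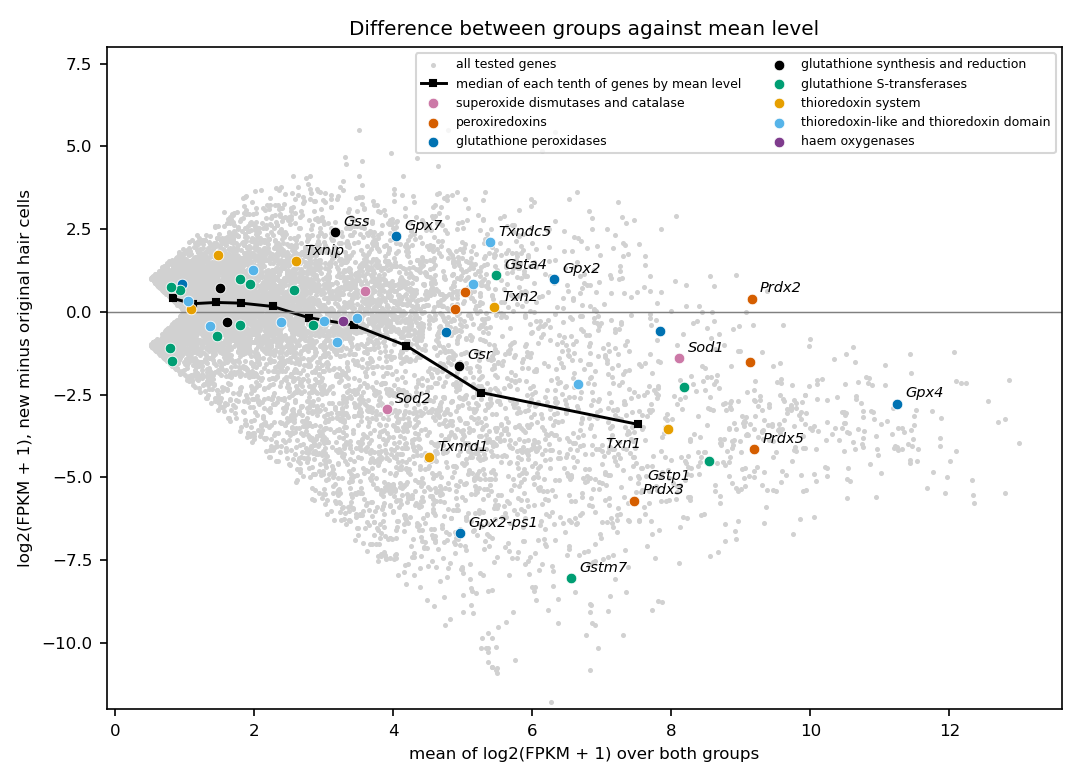
Difference in log2(FPKM + 1), new minus original hair cells, against the mean of both groups, for all 9026 tested genes (grey) and the 51 tested members (coloured by class). Black squares give the median of each level group: Prdx2, Gpx2 and Txndc5 lie far above that line and Gstm7, Gpx2-ps1 and Txnrd1 far below it.

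Superoxide dismutases and catalase were examined first, as the entry and one exit of the pathway. Sod1 (mm10, chr16:90220742-90226324), the copper-zinc enzyme of the cytosol, stood at 170 FPKM in new hair cells and 447 FPKM in original hair cells. Sod2 (chr17:13007839-13018119), the manganese enzyme of the mitochondrial matrix, stood at 4.42 FPKM in new and 40.3 FPKM in original hair cells, 9.13-fold lower in new hair cells, and 21.04% of the 50-base stretches of its annotated transcripts also occur in transcripts of other genes. The ratio of Sod1 to Sod2 was 38.5 in new hair cells and 11.1 in original hair cells. Relative to Sod1, Sod2 was thus lower in new than in original hair cells, whatever the scale of the columns. Catalase, Cat, which works in peroxisomes, was at 14.1 FPKM in new and 8.72 FPKM in original hair cells, within 2-fold on the log2(FPKM + 1) scale. Sod3, the secreted form, was listed at 0 in both groups. Ccs, the copper chaperone that loads Sod1, stood at 79.8 FPKM in new and 18.3 FPKM in original hair cells, the opposite order to Sod1 as deposited, though Sod1 too turned higher after quantile normalization, with equal FPKM sums and relative to genes of the same level.

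Peroxiredoxins changed their order of abundance between the groups. Prdx2 (chr8:84969648-84974313), a cytosolic peroxiredoxin, was the most abundant in new hair cells, at 654 FPKM, against 496 FPKM in original hair cells. It ranked 61 among all genes in new hair cells and 626 in original hair cells. Prdx3 (chr19:60864066-60874538), the peroxiredoxin of the mitochondrial matrix, stood at 23.4 FPKM in new and 1269 FPKM in original hair cells, 54.3-fold lower in new hair cells, with an unadjusted p of 0.0089 in the authors' deposited table. Prdx5 (chr19:6906819-6909645), found in mitochondria, peroxisomes and cytosol, stood at 137 FPKM in new and 2449 FPKM in original hair cells, with a p of 0.0700 in the authors' deposited table. These were the peroxiredoxins that differed most. Prdx1, the other main cytosolic form, was at 330 FPKM in new and 954 FPKM in original hair cells. Prdx4, of the endoplasmic reticulum, was at 39.3 FPKM in new and 25.7 FPKM in original hair cells, and Prdx6, which also acts on phospholipids, at 29.4 FPKM in new and 27.9 FPKM in original hair cells. Prdx6b was 0.00223 FPKM in new hair cells and listed at 0 in original hair cells.

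As shares of the summed peroxiredoxin FPKM, Prdx2 held 53.9% in new and 9.49% in original hair cells. Prdx3 held 1.93% in new and 24.3% in original hair cells, and Prdx5 held 11.3% in new and 46.9% in original hair cells. Prdx1 held 27.2% in new and 18.3% in original hair cells. Per length, Prdx2 was 27.95 times the level of Prdx3 in new hair cells and 0.391 times its level in original hair cells. Such shares and ratios do not move when a whole column is multiplied by a constant. Of the 50-base stretches of Prdx2 transcripts, 4.53% occur in another annotated gene, 8.29% of those of Prdx1, and none of those of Prdx3 and Prdx5. Prdx2 is abundant in red blood cells too. The erythroid markers that were found (6 of 7) summed to 0.0179 FPKM in new and 0.00495 FPKM in original hair cells.

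**Figure D3:**
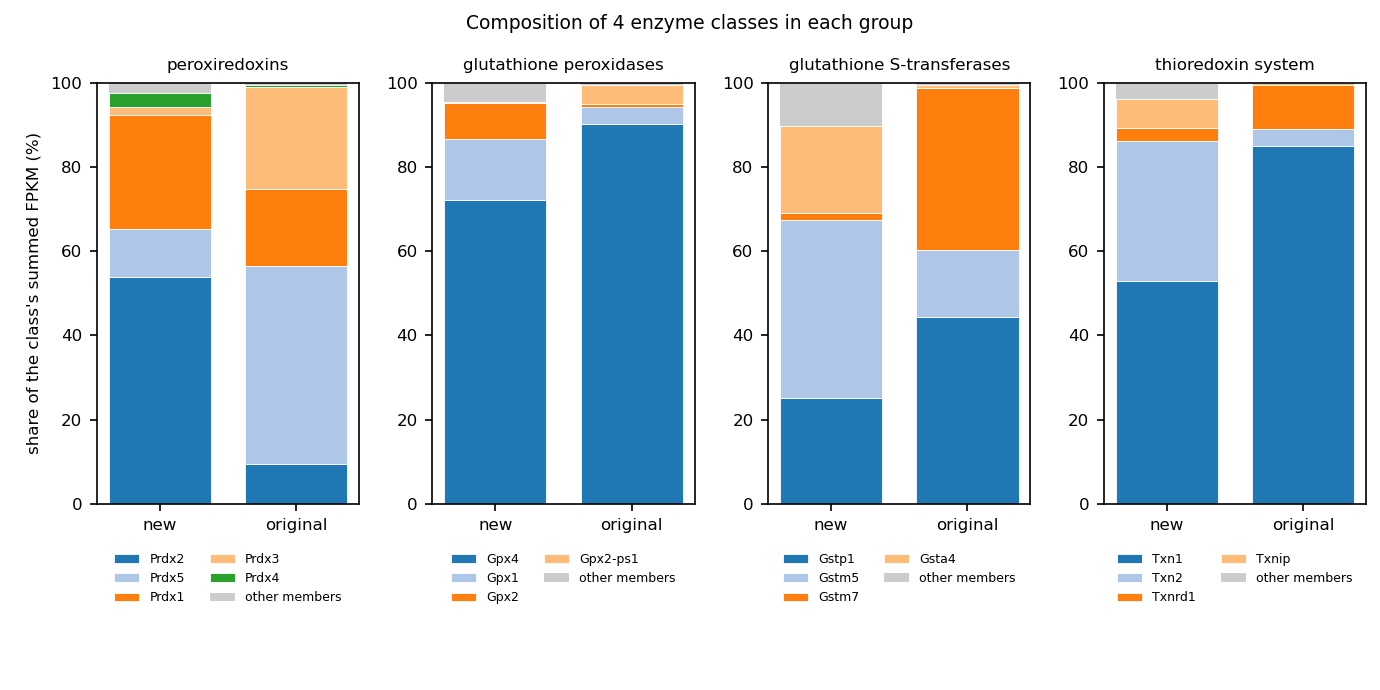
Share of the summed FPKM of a class held by each member in new (left bar) and original hair cells (right bar), for 4 classes; members that reach 3% in neither group are joined in grey. Prdx2 fills 53.9% of the peroxiredoxin bar in new hair cells and 9.49% in original hair cells, and Gstm7 1.56% of the transferase bar in new and 38.3% in original hair cells.

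Glutathione peroxidases were led by Gpx4 in both groups. Gpx4 (chr10:80047166-80056439 in GENCODE M21), which reduces phospholipid hydroperoxides and protects cells from ferroptosis, stood at 925 FPKM in new and 6318 FPKM in original hair cells. It ranked 26 among all genes in new and 69 in original hair cells. Its row in the deposited table spans a locus that 47 other rows share, and 34.7% of its 50-base stretches occur in Gpx4 pseudogenes, so its level is uncertain. Gpx1, of cytosol and mitochondria, was at 186 FPKM in new and 279 FPKM in original hair cells. Gpx4 was 4.99 times the level of Gpx1 in new hair cells and 22.6 times in original hair cells. Gpx2 (chr12:76792335-76795554), known from the gut epithelium, was at 110.3 FPKM in new and 55.5 FPKM in original hair cells. Gpx2 lies farthest above the median of genes at its own level of all glutathione peroxidases, by 4.38 on the log2(FPKM + 1) scale.

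Gpx7, an endoplasmic reticulum enzyme that passes oxidation on to protein folding, stood at 35.4 FPKM in new and 6.45 FPKM in original hair cells, 5.48-fold higher in new hair cells, with a p of 0.153 in the authors' deposited table. Gpx8, its membrane-bound relative, was at 20.97 FPKM in new and 32.2 FPKM in original hair cells. The secreted Gpx3 was at 1.62 FPKM in new and 0.458 FPKM in original hair cells, and Gpx5 and Gpx6 were listed at 0 in both. Gpx2-ps1 stood at 2.08 FPKM in new and 316 FPKM in original hair cells, 152-fold lower in new hair cells, but with a p of 0.513 in the authors' deposited table. Its row spans the locus of Pgm2l1, which was at 3.39 FPKM in new and 11.6 FPKM in original hair cells. Of its 50-base stretches 36.8% also occur in Gpx2, so reads of both cannot be fully separated, and Gpx2 had the opposite order.

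Among genes of glutathione synthesis and recycling, Gss was higher and Gsr lower in new hair cells as deposited, while both were higher in the 3 settings that turn Gsr. Gss (chr2:155563181-155592810), which adds glycine in the last step of synthesis, stood at 19.5 FPKM in new and 2.87 FPKM in original hair cells, 6.82-fold higher in new hair cells, with a p of 0.176 in the authors' deposited table. Gsr (chr8:33653238-33698162), which regenerates reduced glutathione with NADPH, stood at 16.6 FPKM in new and 53.3 FPKM in original hair cells, 3.21-fold lower in new hair cells. The ratio of Gsr to Gss was 0.850 in new and 18.6 in original hair cells. Gclc, the catalytic subunit of the first and rate-limiting step, was low in both groups, at 1.74 FPKM in new and 2.40 FPKM in original hair cells. Gclm, its modifier subunit, was at 2.63 FPKM in new and 1.21 FPKM in original hair cells, so that Gclc was 0.663 times the level of Gclm in new hair cells and 1.99 times in original hair cells.

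Glutathione S-transferases were the class with the lowest summed level in new hair cells relative to original hair cells. Their FPKM summed to 309 in new and 4012 in original hair cells, 13.0-fold lower in new hair cells. As a share of all FPKM that was 0.126% in new and 0.185% in original hair cells, lower in new hair cells, while the share of each of the other 7 classes was higher in new hair cells. Without Gstm7 the transferase share was 0.124% in new and 0.114% in original hair cells, so that order rests on Gstm7. Gstm7 (chr3:107926334-107931745), of the mu class that conjugates electrophiles, stood at 4.81 FPKM in new and 1536 FPKM in original hair cells, 319-fold lower in new hair cells, with a p of 0.0118 in the authors' deposited table. It was the lowest of the 51 members on the log2(FPKM + 1) scale, at -8.05. Only 0.532% of its 50-base stretches occur in another annotated gene.

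The mu class genes lie side by side on chromosome 3, and Gstm5, a neighbour of Gstm7, stood at 131 FPKM in new and 639 FPKM in original hair cells. Gstm5 was 27.2 times the level of Gstm7 in new hair cells and 0.416 times in original hair cells. Gstm6, next to Gstm7 on its other side (chr3:107938848-107943749), was at 5.02 FPKM in new hair cells and listed at 0 in original hair cells, with a p of 0.0001 in the authors' deposited table, the smallest of any member, and it was not among the tested genes because of the 0. Gstm1 was at 6.48 FPKM in new and 3.70 FPKM in original hair cells, and Gstm4 at 2.01 FPKM in new and 2.96 FPKM in original hair cells. Gstm2 and Gstm3 were at 0.395 and 0.00168 FPKM in new hair cells and listed at 0 in original hair cells. Neighbouring genes of 1 cluster thus stood on both sides of the comparison.

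Gstp1 (chr19:4035411-4037912), the pi class enzyme common in epithelia, stood at 77.3 FPKM in new and 1783 FPKM in original hair cells, 23.1-fold lower in new hair cells, with a p of 0.0741 in the authors' deposited table. It shares 33.7% of its 50-base stretches with Gstp2, which was at 0.518 FPKM in new and 0.391 FPKM in original hair cells. Gsta4, the alpha class enzyme for reactive lipid aldehydes, was at 64.01 FPKM in new and 29.2 FPKM in original hair cells, 2.19-fold higher in new hair cells. It held 20.7% of the summed transferase FPKM in new and 0.728% in original hair cells. Of the theta class, Gstt1, Gstt2 and Gstt3 were 1.26 to 4.09 FPKM in new and 0.355 to 1.86 FPKM in original hair cells, and Gstt4 was listed at 0 in both. Gsto2, of the omega class, which reduces dehydroascorbate, was at 0.0543 FPKM in new and 1.94 FPKM in original hair cells. Gsta3 was at 0.184 FPKM in new and 1.54 FPKM in original hair cells, while Gsta1 and Gsta2 were listed at 0 in both. Gstk1, Gstz1 and Gsto1 lay within 2-fold on the log2(FPKM + 1) scale, between 1.14 and 7.22 FPKM over both groups, and Gstcd was under 1 FPKM in both.

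In the thioredoxin system the cytosolic and the mitochondrial branch differed. Txn1 (chr4:57943373-57956411), the cytosolic thioredoxin, stood at 71.7 FPKM in new and 844 FPKM in original hair cells. Txnrd1 (chr10:82833951-82897724), the selenoprotein that reduces it, stood at 3.98 FPKM in new and 104 FPKM in original hair cells, 26.01-fold lower in new hair cells, with a p of 0.0420 in the authors' deposited table. Both cytosolic partners were thus lower in new hair cells as deposited. Txn1 came close to no difference in log2(FPKM + 1) with equal FPKM sums (-0.41) and relative to genes of the same level (-0.14). The row of Txnrd1 shares its locus with Eid3, which was at 0.0126 FPKM in new hair cells and listed at 0 in original hair cells. Txn2, the mitochondrial thioredoxin, was at 45.1 FPKM in new and 40.5 FPKM in original hair cells. Txnrd2, its reductase, was at 4.04 FPKM in new and 0.534 FPKM in original hair cells, in a locus that it shares with other rows, so its level is uncertain. Per length, Txn1 was 1.59 times the level of Txn2 in new and 20.9 times in original hair cells, and Txnrd1 was 0.986 times the level of Txnrd2 in new and 194 times in original hair cells. Txnip, the thioredoxin inhibitor, stood at 9.34 FPKM in new and 2.56 FPKM in original hair cells, 3.64-fold higher in new hair cells. Txnrd3 was at 1.18 FPKM in new and 1.08 FPKM in original hair cells.

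Members were also grouped by where their proteins work, a grouping made after their values had been seen. Of 4 genes of the mitochondrial matrix, Sod2 and Prdx3 were lower by 2-fold or more in new hair cells (50%, against 34.9% of all tested genes). Txnrd2 was higher by 2-fold or more (25%, against 19.9%) and Txn2 within 2-fold. Prdx5, lower by 2-fold or more, and Gpx1, within 2-fold, are also found in mitochondria and were not placed among the 4. In the level groups of Sod2 and Prdx3, 50.3% and 81.9% of all genes were lower by 2-fold or more. Of 7 genes placed in the secretory pathway 3 were higher by 2-fold or more (42.9%, against 19.9% of all tested genes) and none lower (0%, against 34.9%). The FPKM of the 7 summed to 192 in new and 90.6 in original hair cells. The secreted Gpx3, within 2-fold, was not placed among them. Neither was Txndc15, which was lower by 2-fold or more, at 46.1 FPKM in new and 213 FPKM in original hair cells. The counts and sums thus depend on which genes were placed in the group. Txndc5, a protein disulphide isomerase of the endoplasmic reticulum, stood at 85.9 FPKM in new and 19.1 FPKM in original hair cells, 4.49-fold higher in new hair cells, with a p of 0.271 in the authors' deposited table. Txndc16 was at 5.09 FPKM in new and 1.54 FPKM in original hair cells, and with Gpx7 and Txndc5 made up the 3 past 2-fold, while Prdx4, Gpx8, Txndc11 and Txndc12 lay within 2-fold. Of 7 selenoproteins, Gpx4 and Txnrd1 were lower by 2-fold or more in new hair cells (28.6%, against 34.9% of all tested genes). Txnrd2 was higher by 2-fold or more (14.3%, against 19.9%) and 4 lay within 2-fold. The levels of Gpx4 and Txnrd2 are uncertain, as given above. Fibroblasts make much secretory pathway protein, and the 8 mesenchyme and fibroblast markers summed to 413 FPKM in new and 2033 FPKM in original hair cells, with Otor at 0.226 FPKM in new and 1383 FPKM in original hair cells, Lum at 375 FPKM in new and 89.4 FPKM in original hair cells and Col1a2 at 3.54 FPKM in new and 308 FPKM in original hair cells. Their part in these values was not tested.

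Most other thioredoxin domain genes lay within 2-fold. Txndc15 was at 46.1 FPKM in new and 213 FPKM in original hair cells, the single gene of its class lower by 2-fold or more in new hair cells. Txnl4a was at 46.6 FPKM in new and 25.4 FPKM in original hair cells. Txndc9, Txndc17, Txnl1 and Txnl4b ranged from 1.22 to 9.38 FPKM in new and from 1.96 to 11.5 FPKM in original hair cells, and Txndc2 and Txndc8 were at or near 0. Haem oxygenase genes were low. Hmox2, the constitutive enzyme, was at 7.78 FPKM in new and 9.66 FPKM in original hair cells, and Hmox1, the inducible enzyme and a target of NRF2, was at 0.707 FPKM in new and 0.643 FPKM in original hair cells, below the filter. Macrophages, which express Hmox1, were represented by 10 markers that summed to 73.4 FPKM in new and 6.75 FPKM in original hair cells, almost all of it Tyrobp (71.7 FPKM in new and 3.24 FPKM in original hair cells), while the other 9 summed to 1.77 FPKM in new and 3.51 FPKM in original hair cells and Ptprc was listed at 0 in both.

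Genes around these enzymes were described from 4 lists. Of 20 tested genes of glutathione and NADPH supply, 5 were higher by 2-fold or more in new hair cells (25%, against 19.9% of all tested genes) and 7 lower (35%, against 34.9%), with a median difference of -0.30. Slc3a2, the heavy chain of several amino acid transporters, among them the cystine-glutamate exchanger, stood at 6.32 FPKM in new and 876 FPKM in original hair cells, with a p of 0.0011 in the authors' deposited table, while Slc7a11, the light chain of that exchanger, was under 1 FPKM in both. Glo1, which clears methylglyoxal with glutathione, stood at 26.1 FPKM in new and 339 FPKM in original hair cells. In the pentose phosphate pathway, which makes NADPH, Pgd was at 21.9 FPKM in new and 2.50 FPKM in original hair cells, Pgls at 88.4 FPKM in new and 32.8 FPKM in original hair cells, and Tkt at 10.1 FPKM in new and 2.06 FPKM in original hair cells. G6pdx, its first enzyme, was at 11.2 FPKM in new and 16.7 FPKM in original hair cells. Taldo1, of the same pathway, was lower by 2-fold or more in new hair cells, at 87.2 FPKM in new and 188 FPKM in original hair cells.

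Of 26 tested genes of the NRF2 pathway and other antioxidant genes, 7 were higher by 2-fold or more in new hair cells (26.9%, against 19.9% of all tested genes) and 11 lower (42.3%, against 34.9%), with a median of -0.58. Nfe2l2, which encodes NRF2, was at 2.14 FPKM in new and 2.62 FPKM in original hair cells, and Keap1, its inhibitor, at 9.05 FPKM in new and 15.8 FPKM in original hair cells. Nqo1, a classical target, was at 0.358 FPKM in new and 0.348 FPKM in original hair cells. The genes of this list with the highest mean of both groups were Ftl1, the ferritin light chain, at 2337 FPKM in new and 21824 FPKM in original hair cells, and Mgst3, a microsomal transferase, at 576 FPKM in new and 10474 FPKM in original hair cells. In new hair cells Fth1, the ferritin heavy chain, exceeded Mgst3, at 1465 FPKM in new and 5282 FPKM in original hair cells. Mgst1, another microsomal transferase, had the opposite order, at 82.8 FPKM in new and 20.7 FPKM in original hair cells. Mt1, a metallothionein, stood at 33.6 FPKM in new and 2595 FPKM in original hair cells.

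Selenoproteins outside the enzyme classes and factors of selenoprotein synthesis, such as Trnau1ap and Secisbp2, were taken as a single list. Of it 20 genes were found in the table, of which 16 were tested, and the counts and median cover both kinds. By 2-fold or more, 2 were higher in new hair cells (12.5%, against 19.9% of all tested genes) and 6 lower (37.5%, against 34.9%), with a median of -0.13. The 2 higher were the synthesis factor Trnau1ap (47.1 FPKM in new and 14.7 FPKM in original hair cells) and Sepp1 (12.6 FPKM in new and 3.86 FPKM in original hair cells). Sepw1 stood at 750 FPKM in new and 10721 FPKM in original hair cells. Vimp, a selenoprotein of the endoplasmic reticulum membrane, stood at 63.7 FPKM in new and 2421 FPKM in original hair cells. Sephs2, which makes the selenium donor for selenocysteine, stood at 2.04 FPKM in new and 64.6 FPKM in original hair cells, with a p of 0.0447 in the authors' deposited table. Of 7 tested genes of oxidant sources and ferroptosis, 1 was higher by 2-fold or more (14.3%, against 19.9% of all tested genes) and 2 lower (28.6%, against 34.9%), with a median of 0.27. The 3 were Acsl4, which makes lipids prone to peroxidation, at 1.46 FPKM in new and 50.1 FPKM in original hair cells, Nox1, an NADPH oxidase, at 0.971 FPKM in new and 127 FPKM in original hair cells, and Alox15, a lipoxygenase, at 7.14 FPKM in new and 0.173 FPKM in original hair cells. Nox3, the oxidase known from the inner ear, was listed at 0 in both groups.

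**Figure D4:**
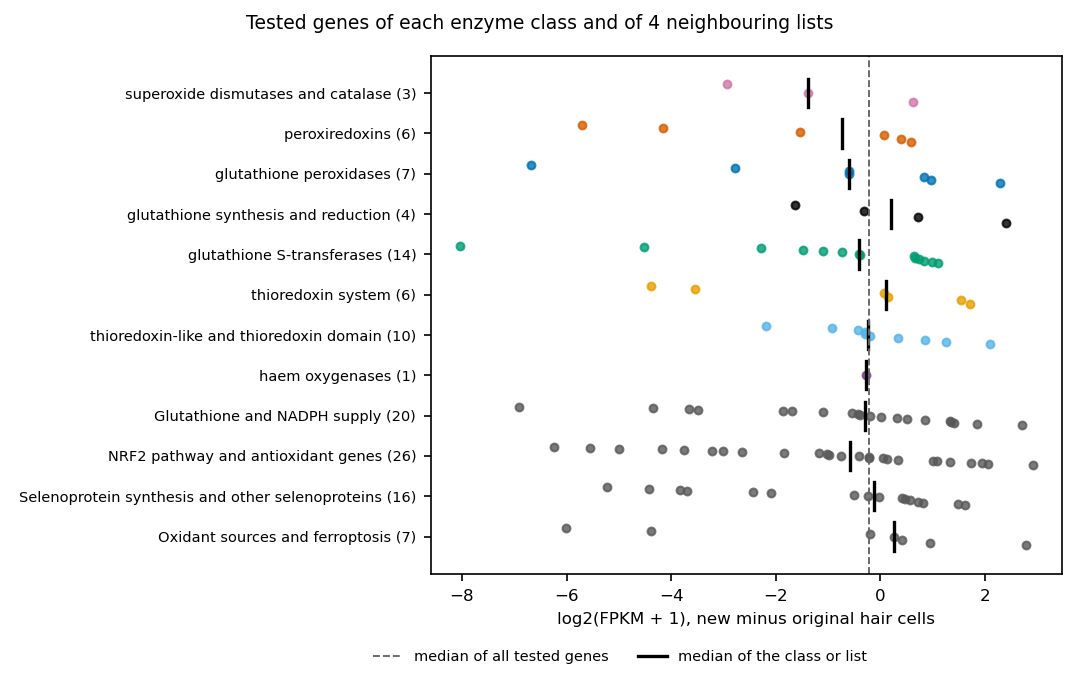
Difference in log2(FPKM + 1), new minus original hair cells, of each tested gene (points) in the 8 enzyme classes (colours) and 4 neighbouring lists (grey), with the number of genes in brackets, the median of each class or list (black bar) and of all tested genes (dashed line, -0.21). Every class of at least 3 genes spreads over both sides of that line.

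Together with the 6 genes whose windows are shown above, 9 tested members in all held the TGACNNNGC core in a window. Of these, 6 were lower by 2-fold or more in new hair cells (66.7%) and 1, Txndc5, higher (11.1%), with a median of -1.39. The 6 were Gsta3, Gstm5, Gstm7, Prdx1, Sod1 and Txnrd1, of which Gstm5, Prdx1 and Sod1 turned higher in the settings named above. Of the 34 tested members whose windows lack the core, 8 were lower (23.5%) and 5 higher (14.7%), with a median of -0.24. Over all tested genes with a window, 32.9% of 1177 genes with the core were lower by 2-fold or more, against 34.4% of 5685 genes without it. Higher by 2-fold or more were 20.8% of genes with the core and 20.1% of genes without it. The medians of members were not matched for level. Sod1, Prdx1, Gstm5 and Gstm7 lay in the highest level group, where 81.9% of all genes were lower by 2-fold or more. Txndc5 (4.55), Sod1 (2.01), Prdx1 (1.87), Gstm5 (1.12), Gclm (0.43) and Txndc11 (0.09) lay above the median of their level group. Gsta3 (-1.50), Txnrd1 (-3.37) and Gstm7 (-4.65) lay below theirs. A link between the core and direction was not tested.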

How the data were processed

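RNA sequencing of 4 libraries of sorted hair cells (SMART-Seq v4 kit, per the labels' protocols) was analysed from 1 deposited table of 23996 genes, with 1 more row not used here. The submitters' processing notes name CASAVA 1.8, Trimmomatic, TopHat and build mm10. For the expression program, the test and the read length, the sources used here give nothing. The authors deposited FPKM as 1 value per gene and group, pooled or averaged from 2 libraries, an unadjusted p-value, and a log2 ratio in another column, which matched the FPKM ratio within 0.01 for every member with a value. Low FPKM values times transcript length were not whole multiples of a step (25.4% and 32.6% within 0.1 of one in new and original hair cells, where 20% would be by chance), so depth is unknown.

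The 66 members and all lists were chosen with earlier results of these data known. Tested genes had at least 1 FPKM in a group and a value above 0 in both. Differences are log2(FPKM + 1), new minus original, which understates the change of low genes, and calls are at 2-fold; folds of single genes are plain FPKM ratios. The planned limma test could not be fitted to 1 value per group. The deposited p-value of each gene was adjusted after Benjamini and Hochberg over all 9026 tested genes with a threshold of 0.05. Named by rule were tested members of at least 5 FPKM in the higher group past 2-fold, the most abundant of each class, and Gclc, Gclm, Gss, Gsr, Cat, Sod and Hmox genes; the 2 most abundant genes of each list; others were chosen after their values were seen. Reads may be divided between 12 members and other rows that overlap them (5315 rows of the table share a locus), and 50-base stretches shared between GENCODE M21 transcripts were counted. Locus starts were raised by 1, since 3120 of 6758 genes with the GENCODE end began exactly 1 base lower. Counting, scaling and adjustment were tested on simulated data. Settings varied were the pseudocount (0.1), the level filter (none, or 5 FPKM), the scaling (trimmed mean with 30% of the ratios and 5% of the levels cut at each end, quantile normalization, equal FPKM sums) and the omission of rows with a shared locus or several genes. A difference relative to genes of the same level was chosen after seeing the data. The software was Python 3.11.15, numpy 2.4.6, pandas 2.3.3 and matplotlib 3.10.9.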

Additional observations from a re-analysis of the deposited data

How the results depend on the processing

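No paired analysis was possible because the table holds 1 value per group, and leaving out a library could not be run for the same reason. With 1 value per gene and group, counts and medians describe these libraries. Among members higher by 2-fold or more in new hair cells (7 as reported), the count was 13 with a pseudocount of 0.1, 12 with trimmed-mean scaling, 22 after quantile normalization, 38 with equal FPKM sums and 19 relative to genes of the same level, and 5 to 7 in the other settings. Members lower by 2-fold or more (16 as reported) numbered 8 after quantile normalization, 6 with equal sums, 9 relative to genes of the same level and 11 to 18 otherwise. The median of -0.29 turned to 0.016 with trimmed-mean scaling, 0.75 after quantile normalization, 2.55 with equal sums, 0.073 without rows sharing a locus and 0.44 relative to genes of the same level. The scalings moved the median of all tested genes too, from -0.21 to 0.06, 0.28 and 2.53, in that order. Of members past 2-fold, 30.4% were higher in new hair cells as reported, 41.9% with a pseudocount of 0.1, 42.9% with trimmed-mean scaling, 73.3% after quantile normalization, 86.4% with equal sums and 67.9% relative to genes of the same level. Of 24 named genes with a value, 8 changed sign in some setting. For 6 that were past 2-fold this happened after quantile normalization, with equal sums and relative to genes of the same level. In that order of settings they were Sod1 (1.86, 1.75 and 2.01), Prdx1 (1.77, 1.62 and 1.87), Gpx4 (0.75, 0.38 and 0.63), Gsr (0.23, 1.45 and 0.82), Gstm5 (1.02, 0.86 and 1.12) and Txndc15 (0.46, 0.94 and 1.21). Within 2-fold as reported, Hmox2 (-0.28) turned to 0.033 with trimmed-mean scaling and to 0.60, 2.72 and 0.12 in those 3 settings, and Gclc (-0.31) to 2.27 with equal sums. Prdx3, Prdx5, Gstm7, Gstp1, Txn1, Txnrd1 and Sod2 had a lower value in new hair cells, and Gss, Gpx7, Gsta4, Txnip, Txndc5 and Txndc16 a higher one, in each setting that gave them a value; Txnrd1 and Txnip have none without rows sharing a locus. Some came close to no difference: Sod2 was at -0.041 with equal sums, and Txn1 at -0.41 with equal sums and -0.14 relative to genes of the same level.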
